A study of Mus musculus with 6 samples.

Results

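Reactive oxygen species are made by the NADPH oxidases and cleared by antioxidant enzymes, and 10 mouse genes of both kinds were followed here in fibroblasts given TGF-β1 and an inhibitor of the kinase PLK1. The genes were chosen by name: Nox4 and its membrane partner Cyba, the superoxide dismutases Sod1, Sod2 and Sod3, the peroxide-removing enzymes Cat, Gpx1 and Gpx3, and the stress-inducible enzymes Hmox1 and Nqo1. They are 10 of 54752 genes in the count table. Of the 10, 9 had counts in some library and 8 passed the filter on low counts, against 14604 of all genes that passed it. Nox4, which leads the list, had 0 counts in all 6 libraries, so the data describe Cyba and the antioxidant enzymes rather than NOX4 itself.

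RNA was sequenced after depletion of rRNA from NIH/3T3 cells, 1 established line of mouse embryonic fibroblasts, in 3 groups of 2 replicates. All groups were cultured for 72 h in complete DMEM. The first group received the vehicle PBS, as the sample labels give it, while the study's methods name complete medium alone for these controls. The second received TGF-β1 at 1 ng/ml together with DMSO, the solvent of the inhibitor. The third received TGF-β1 at 1 ng/ml together with BI6727 at 5 µM. BI6727 (volasertib) is an inhibitor of PLK1, a kinase of mitosis. The effects of TGF-β1 and of DMSO cannot be told apart in the comparison of the second group with vehicle, since the vehicle group received PBS. The comparison of TGF-β1 and DMSO with vehicle asks which genes differ under the fibrotic stimulus, and the comparison of BI6727 with DMSO asks which differ when PLK1 is inhibited under that stimulus.

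NOX4 is an oxidase that sits in membranes with the small subunit p22phox, the product of Cyba, and makes mostly hydrogen peroxide. It is best known as an oxidase that TGF-β1 induces in lung and kidney fibroblasts during their conversion to myofibroblasts. Superoxide dismutases turn superoxide into hydrogen peroxide, which catalase and the glutathione peroxidases then remove. The transcription factor NRF2, encoded by Nfe2l2, binds antioxidant response elements with small MAF proteins and drives genes such as Nqo1 and Hmox1, and the repressor BACH1 competes for the same elements.

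RefSeq gave a promoter sequence of GRCm38.p6, the assembly also named mm10, for 8 of the 10 genes, as the 250 bases before and 50 bases after the annotated start. Hmox1 and Sod3 had no sequence there and were not searched. The antioxidant response element core TGACNNNGC, the AP-1 site TGANTCA and the SMAD element GTCTAGAC were searched on both strands. Among 32851 promoters of the same length, 12.4% held the first, 7.81% the second and 0.213% the third. Among the 8, the search found a single match, an antioxidant response element core in Sod1 on the minus strand, whose first base on the plus strand lies 56 bases before the start. It is shown because the NRF2 targets are compared further on, with the match in capitals, at chr16:90220696-90220724 on the plus strand.

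Sod1: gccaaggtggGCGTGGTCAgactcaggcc

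Shown next are the stretches from 250 to 31 bases before the start of Sod2, which was lower with TGF-β1 and DMSO, and of Nqo1, which was higher. Capitals mark each CG dinucleotide. The Sod2 stretch is chr17:13007589-13007808 on the plus strand and the Nqo1 stretch is chr8:107403236-107403455 on the minus strand.

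Sod2: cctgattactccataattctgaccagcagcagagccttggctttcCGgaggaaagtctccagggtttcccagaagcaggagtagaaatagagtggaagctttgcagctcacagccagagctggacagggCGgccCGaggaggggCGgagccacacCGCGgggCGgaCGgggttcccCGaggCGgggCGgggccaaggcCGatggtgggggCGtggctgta

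Nqo1: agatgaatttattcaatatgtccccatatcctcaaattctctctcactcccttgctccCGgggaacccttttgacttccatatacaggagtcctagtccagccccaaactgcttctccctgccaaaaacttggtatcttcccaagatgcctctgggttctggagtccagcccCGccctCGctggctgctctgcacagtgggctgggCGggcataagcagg

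The Sod2 stretch held 13 CG dinucleotides and the Nqo1 stretch 4. Over the full 250 bases before the start, GC content was 63.6% for Sod2 and 53.2% for Nqo1, against a median of 52.4% over all promoters. GC content was 67.2% for Nox4, which had 0 counts, and 66.4% for Sod1. The matches and the base composition describe the letters of these windows only.

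The libraries held between 18362378 and 24452153 counts on genes, so 3 counts, the floor used for a gene at 0, correspond to 0.123 to 0.165 CPM, where CPM are counts relative to the library total. Values below are normalized CPM, on totals scaled by edgeR's TMM method, given as replicate 1 and then replicate 2. Genes were called in edgeR's quasi-likelihood test over all 14604 genes, where a call needed an adjusted p (Benjamini-Hochberg) below 0.01 together with more than a 2-fold difference. A second and less strict threshold was an adjusted p-value below 0.05 with no minimum fold. The sum of 10 fibroblast markers lay between 8024 and 10731 CPM, and 0 of them was at 0. DESeq2 called 3 of these markers lower with DMSO and 5 lower with BI6727 against vehicle. Chosen after their values were seen, Dcn, Pdgfra and Lum had log2 fold changes of -1.96, -1.85 and -3.15 with DMSO against vehicle in edgeR. Vim went the other way, at 3908 and 4100 CPM in vehicle and 4791 and 5008 with DMSO. Col1a1 read 430 and 373 CPM in vehicle and 849 and 436 with DMSO, and Fn1 1403 and 1297 against 2646 and 1078. DESeq2 called 0 of the 10 markers higher. The part of these differences in the results was not tested. The TGF-β1 response genes Acta2, Ccn2 and Smad7 were called higher with TGF-β1 and DMSO than in vehicle, and Col1a1 and Tagln were not called. Epithelial markers summed to at most 1.27 CPM with Krt5 and Krt18 at 0, and leukocyte markers to at most 5.84 CPM with Adgre1 and Cybb at 0. The sum of 5 endothelial markers was 4.95 to 7.23 CPM in vehicle, 11.8 to 17.9 with TGF-β1 and DMSO, and 10.1 to 10.3 with BI6727, with Kdr and Tie1 at 0, and its part in the results was not tested. In bulk RNA, fewer cells of a type and less RNA per cell cannot be told apart.

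The second library with TGF-β1 and DMSO stood apart from the other 5 in its relation to gene length. After centring, its genes at the 10th percentile of length (892.6 bases) had a fitted deviation of 0.23 on the log2 scale and those at the 90th percentile (9294.7 bases) one of -0.24. In the other libraries these fitted values lay between -0.10 and 0.10. The chi-square of the counts per degree of freedom between replicates was 55.4 for this group, against 6.05 for vehicle and 5.23 for BI6727.

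Of the 8 genes tested, Sod2 was called lower with TGF-β1 and DMSO than in vehicle, and none was called higher. At the less strict threshold Hmox1 and Nqo1 were higher and Sod2 and Cat lower. Across all genes, 5.98% were called in this comparison and 20.9% passed the less strict threshold, 9.87% of them all as higher and 11.0% as lower. Unadjusted p was below 0.05 for 5 of the 8 genes and for 35.2% of all genes. With BI6727 against vehicle, Hmox1 was called higher and none was called lower, where 6.22% of all genes were called. At the less strict threshold Cyba, Hmox1 and Nqo1 were higher and Sod2 lower, where 22.0% of all genes passed, 9.98% as higher and 12.0% as lower. Unadjusted p was below 0.05 for 7 of the 8 and for 35.4% of all genes. Between BI6727 and DMSO under TGF-β1, 0 of the 8 genes were called and 0 passed the less strict threshold, where 0% of all genes were called and 0.0137% passed. In that comparison edgeR's unadjusted p-value was below 0.05 for Hmox1 alone, against 7.13% of all genes, and DESeq2 also called 0 of the 8.

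**Figure D1:**
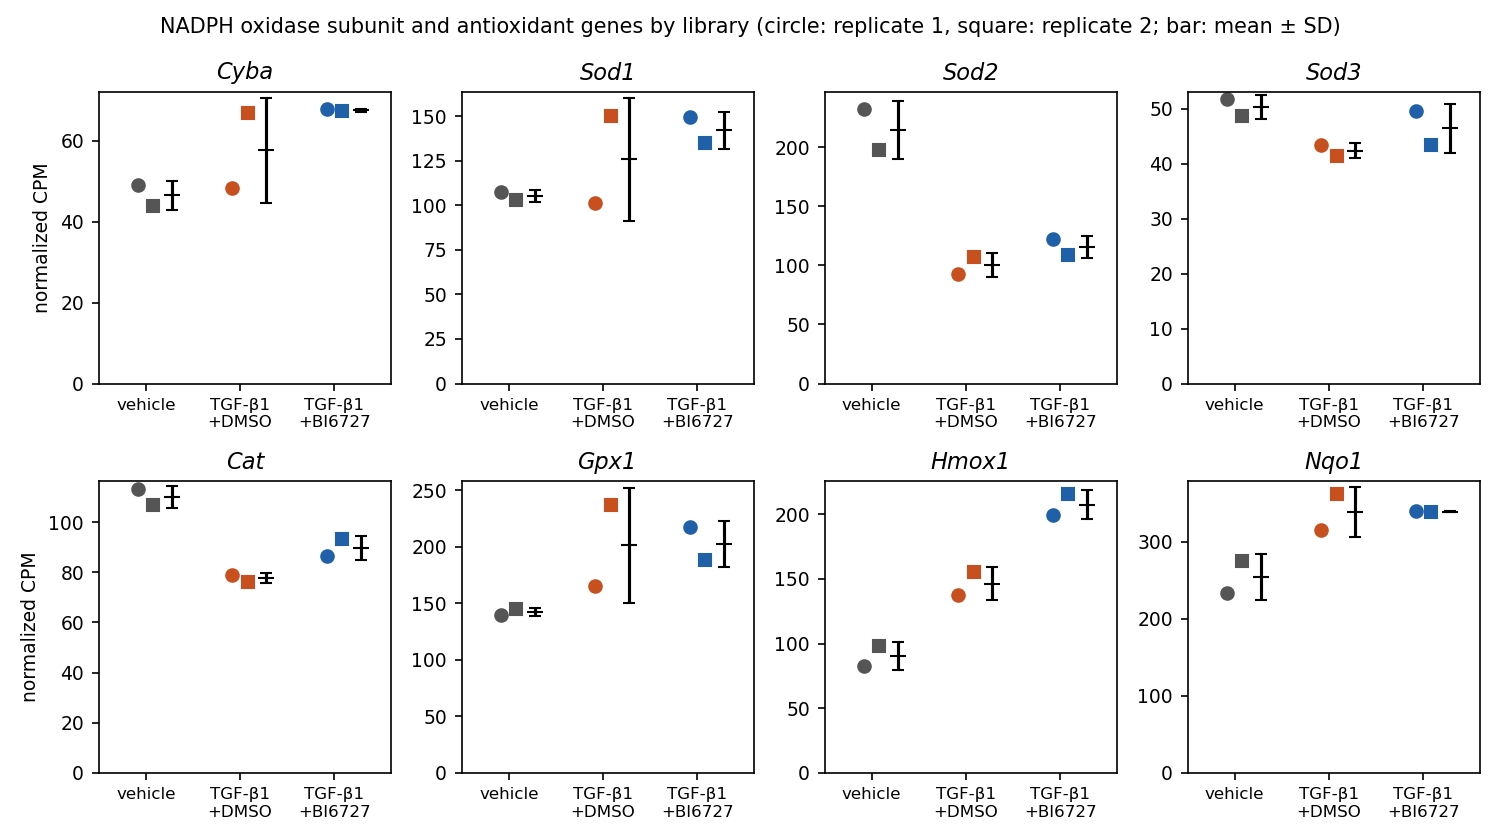
Normalized CPM (vertical axes, each from 0) of the genes in the 6 libraries, by group, with replicate 1 as a circle, replicate 2 as a square and the bar giving mean ± SD of 2 replicates. Sod2 sits at 197 and above in vehicle and at 122 and below in the other libraries, and Hmox1 is lowest in vehicle and highest with BI6727.

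Nox4 encodes the catalytic subunit of the oxidase. In mm10 the gene spans chromosome 7, positions 87246096 to 87398710, on the plus strand, with 8471 bases of annotated exon. All 6 libraries held 0 counts on it. A count of 3 would correspond to 0.0145 to 0.0195 RPKM (CPM per kilobase of exon) in these libraries, so a level up to that is not detectable at this depth. Its exons overlap those of no other annotated gene, and 0.714% of its 50-base windows occur in transcripts of other genes. No fold change can be given for Nox4, and no gene could be matched to its pattern.

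Cyba, on chromosome 8 at positions 122424776 to 122432930 of the minus strand, encodes p22phox, which stabilizes several NADPH oxidases. It read 49.1 and 43.9 CPM in vehicle, 48.4 and 66.8 with TGF-β1 and DMSO, and 67.8 and 67.3 with BI6727. The DMSO library of replicate 1 lay among the vehicle libraries and that of replicate 2 beside the BI6727 libraries. The log2 fold change of TGF-β1 and DMSO against vehicle was 0.31 (SE 0.159, 95% interval -0.05 to 0.67, edgeR adjusted p = 0.203). Against vehicle, BI6727 gave 0.54 (SE 0.159, 95% interval 0.17 to 0.90, edgeR adjusted p = 0.0432), which passed the less strict threshold with no overlap. Without DMSO replicate 1 the value of TGF-β1 and DMSO against vehicle was 0.53 and without replicate 2 it was 0.071.

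Many NADPH oxidase genes were near the floor. Of the 18 genes on the list, Nox4 and Cyba included, 9 passed the filter, and 0 were called in any of the 3 comparisons by edgeR or DESeq2. Unadjusted p was below 0.05 for 4 of the 9 with DMSO and 5 with BI6727 against vehicle, and for 0 between BI6727 and DMSO. Of all genes, 35.2%, 35.4% and 7.13% had one in these comparisons. The catalytic subunit Cybb (NOX2), the activator Noxa1 and the GTPase Rac2 had 0 counts in all libraries. Nox1 had 0 to 3 counts and Nox3 a single count in 1 library. The dual oxidase Duox1 was the best covered catalytic subunit, at 25 to 62 counts per library or 0.261 to 0.554 RPKM, and Duox2 had 9 to 32 counts. Cybc1, which is needed for assembly of the NOX2 heterodimer, read 38.7 and 39.8 CPM in vehicle, 53.9 and 57.5 with TGF-β1 and DMSO, and 55.7 and 55.4 with BI6727. Chosen after its values were seen, Cybc1 had a log2 fold change of 0.51 against vehicle with DMSO (edgeR adjusted p = 0.014) and 0.50 with BI6727 (edgeR adjusted p = 0.0136). Lower at the less strict threshold with BI6727 against vehicle were Duoxa1, a maturation factor of the dual oxidases, at -1.11 (edgeR adjusted p = 0.0262), and the GTPase Rac1 at -0.43 (edgeR adjusted p = 0.0147), both also chosen after their values were seen. The exons of Rac1 overlap those of another gene over 51.4% of their length. The median log2 fold change of the 9 genes tested was 0.27 with TGF-β1 and DMSO against vehicle, 0.063 with BI6727 against vehicle and -0.11 with BI6727 against DMSO, where all genes tested had medians of -0.011, 0.0049 and -0.0012.

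Sod1 encodes the cytosolic copper and zinc dismutase and lies on chromosome 16 at 90220754 to 90226329. Its 2 vehicle libraries read 108 and 103 CPM, the DMSO libraries 101 and 150.1, and the BI6727 libraries 149.5 and 135. The DMSO replicates lay on either side of the other groups, one below vehicle and one above BI6727. The log2 fold change was 0.26 (95% interval -0.14 to 0.65, edgeR adjusted p = 0.322) for DMSO against vehicle and 0.18 (95% interval -0.21 to 0.57, adjusted p = 0.858) for BI6727 against DMSO. It was 0.43 for BI6727 against vehicle (adjusted p = 0.109), where the groups did not overlap. Over the alternative fits by edgeR or DESeq2 with no replicate left out, that adjusted p ranged from 0.000103 to 0.138. The sign turned to -0.041 against vehicle without DMSO replicate 2, and to -0.081 for BI6727 against DMSO without DMSO replicate 1. Sod1 shared 3.42% of its 50-base windows with other transcripts.

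Sod2 encodes the manganese dismutase of mitochondria and lies on chromosome 17 at 13006846 to 13040063. Of the genes tested it was the one that fell past the strict threshold with TGF-β1 and DMSO. Its libraries read 232 and 197 CPM in vehicle, 92.8 and 107 with TGF-β1 and DMSO, and 122 and 109 with BI6727. Both vehicle libraries lay above all 4 libraries with TGF-β1, and the BI6727 libraries lay just above the DMSO libraries. The group means were 215 ± 24.4, 100.1 ± 10.4 and 116 ± 9.27 CPM (SD, n = 2). TGF-β1 and DMSO gave a log2 fold change of -1.10 against vehicle (SE 0.130, 95% interval -1.40 to -0.80, edgeR adjusted p = 0.000692), a level 2.14-fold lower. BI6727 gave -0.89 against vehicle (SE 0.129, edgeR adjusted p = 0.00189), 1.86-fold lower, which passed the less strict threshold but not the fold minimum. Between BI6727 and DMSO the difference was 0.21 (95% interval -0.09 to 0.50, edgeR adjusted p = 0.779).

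The call on Sod2 lay close to the minimum fold of 2. With offsets that take out the relation of each library to gene length, the log2 fold change of TGF-β1 and DMSO against vehicle was -0.90 (adjusted p = 0.00131), and without vehicle replicate 1 it was -0.98 (adjusted p = 0.0192). Without DMSO replicate 1 it was -0.99, again under the minimum. Of the 50-base windows of Sod2, 21.0% occur in transcripts of other genes, so its count is uncertain there.

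Sod3 encodes the secreted dismutase, on chromosome 5 at 52363791 to 52371418. It read 51.8 and 48.7 CPM in vehicle, 43.3 and 41.4 with TGF-β1 and DMSO, and 49.5 and 43.3 with BI6727. Its DMSO libraries lay below both vehicle libraries, while BI6727 overlapped vehicle. The log2 fold change was -0.25 against vehicle with DMSO (95% interval -0.52 to 0.03, edgeR adjusted p = 0.185) and 0.13 between BI6727 and DMSO (95% interval -0.15 to 0.41, edgeR adjusted p = 0.855).

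Cat encodes catalase, the peroxide-splitting enzyme of peroxisomes, on chromosome 2 at 103453849 to 103485160. Vehicle libraries read 113 and 107 CPM, DMSO libraries 79.1 and 76.2, and BI6727 libraries 86.4 and 93.1. The 3 groups did not overlap, with BI6727 in between. TGF-β1 and DMSO gave -0.50 on the log2 scale against vehicle (SE 0.104, 95% interval -0.74 to -0.26, edgeR adjusted p = 0.0108), which passed the less strict threshold. BI6727 against vehicle gave -0.29 (adjusted p = 0.0777) and BI6727 against DMSO 0.21 (95% interval -0.03 to 0.45, edgeR adjusted p = 0.717). The last value is also the test of whether the differences from vehicle were unequal, and it did not pass. For BI6727 against vehicle the adjusted p ranged from 0.00349 to 0.155 over the alternative fits by edgeR or DESeq2 with no replicate left out.

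Gpx1 encodes the main cytosolic glutathione peroxidase, on chromosome 9 at 108338903 to 108340343. It read 140 and 145 CPM in vehicle, 165 and 238 with TGF-β1 and DMSO, and 217 and 188 with BI6727. Every library with TGF-β1 lay above both vehicle libraries, and the DMSO replicates spanned the BI6727 values. The log2 fold change was 0.50 against vehicle with DMSO (95% interval 0.12 to 0.88, edgeR adjusted p = 0.0674) and 0.51 with BI6727 (adjusted p = 0.0614). DESeq2 gave adjusted p-values of 0.0234 and 0.0242 for these comparisons. Over the alternative fits by edgeR or DESeq2 with no replicate left out, the adjusted p ranged from 0.00149 to 0.111 with DMSO. It ranged from 2.59e-05 to 0.0804 with BI6727. Between BI6727 and DMSO the log2 fold change was 0.0095 (95% interval -0.37 to 0.39, adjusted p = 0.994).

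Gpx3 encodes the secreted glutathione peroxidase, on chromosome 11 at 54902453 to 54910377. It had 1 and 0 counts in vehicle, 4 and 8 with TGF-β1 and DMSO, and 3 and 5 with BI6727, and did not pass the filter. The 12 counts with DMSO against 1 in vehicle gave a ratio of 12.0 with a 95% interval of 1.77 to 513 for counting error only. The 8 counts with BI6727 gave a ratio of 7.92 (95% interval 1.06 to 351). These intervals leave out the spread between replicates, so no call is made.

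In DMSO replicate 2 the genes Sod1, Gpx1 and Cyba read higher than in replicate 1 by 0.56, 0.52 and 0.47 on the log2 scale. The length trend of that pair of libraries came to -0.0078, 0.26 and 0.31 at the exon lengths of these genes, as annotated. Over the shorter main transcript Sod1 measures 641 bases, against 3970 bases for all its exons. For Hmox1, Nqo1, Cat and Sod3 the gap between the replicates was 0.20 or less in either direction. Sod2 read 0.21 higher in replicate 2, where the length trend came to -0.35, the opposite direction.

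Hmox1 encodes heme oxygenase-1, which opens heme to biliverdin, iron and carbon monoxide, and lies on chromosome 8 at 75093621 to 75100589. It read 82.4 and 98.1 CPM in vehicle, 138 and 155 with TGF-β1 and DMSO, and 199.6 and 215 with BI6727. The 3 groups did not overlap and stood in that order from low to high. The group means were 90.3 ± 11.1, 146 ± 12.5 and 207 ± 11.2 CPM (SD, n = 2). TGF-β1 and DMSO gave a log2 fold change of 0.70 against vehicle (SE 0.125, 95% interval 0.41 to 0.98, edgeR adjusted p = 0.00554), 1.62-fold and so under the minimum fold. BI6727 gave 1.20 against vehicle (SE 0.125, 95% interval 0.91 to 1.49, edgeR adjusted p = 0.000327), 2.30-fold, and was called. The difference between BI6727 and DMSO was 0.50 (SE 0.124, 95% interval 0.22 to 0.78), or 1.42-fold.

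That difference did not pass the correction over all genes, with an edgeR p-value of 0.00318 and an adjusted p of 0.546, and it pointed the same way in both BI6727 libraries. The adjusted p ranged from 0.0335 to 0.959 over the alternative fits, a fit of these 2 groups alone among them, and from 0.00192 to 1 with a library left out. Without vehicle replicate 1, the log2 fold change of Hmox1 with BI6727 against vehicle was 1.08 (adjusted p = 0.0136) and was no longer called.

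Nqo1 encodes a quinone reductase that is a standard readout of NRF2, on chromosome 8 at 107388225 to 107403206. It read 233 and 275 CPM in vehicle, 316 and 361 with TGF-β1 and DMSO, and 339 and 338 with BI6727. Both groups with TGF-β1 lay above vehicle and overlapped each other. The log2 fold change against vehicle was 0.41 in both comparisons, with edgeR adjusted p = 0.0437 for DMSO and 0.0415 for BI6727, or 1.33-fold. Between BI6727 and DMSO it was 0.00082 (95% interval -0.28 to 0.28, edgeR adjusted p = 1). Hmox1 and Nqo1 thus both passed the less strict threshold against vehicle, and only for Hmox1 was the unadjusted p between BI6727 and DMSO below 0.05.

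**Figure D2:**
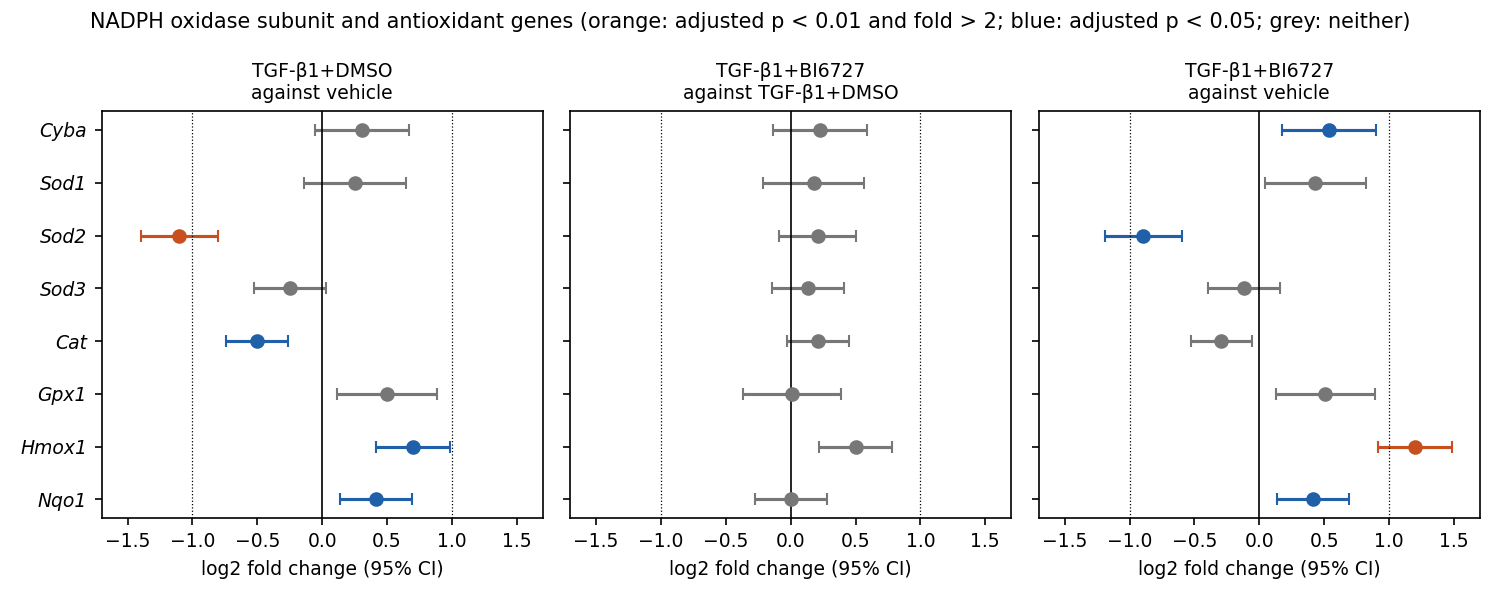
Log2 fold changes (horizontal axis) of the 8 genes tested with 95% intervals in the 3 comparisons, dotted lines marking a fold of 2. Sod2 at -1.10 with TGF-β1 and DMSO and Hmox1 at 1.20 with BI6727 are the points past the strict threshold, and in BI6727 against DMSO the intervals of all but Hmox1 include 0.

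The 8 genes had a median log2 fold change of 0.28 for TGF-β1 and DMSO against vehicle, 0.19 for BI6727 against DMSO and 0.42 for BI6727 against vehicle. The values were above 0 for 5 of the 8 genes in each comparison with vehicle, where 49.1% and 50.5% of all genes were. For BI6727 against DMSO all 8 values were above 0, where 49.7% of all genes were, although those of Gpx1 and Nqo1 turned below 0 under DESeq2 at -0.0037 and -0.012. The comparisons of DMSO and BI6727 with vehicle share the vehicle libraries, and those with DMSO share the DMSO libraries. The groups did not overlap for 6 of the 8 genes between DMSO and vehicle (60.5% of all genes), for 5 between BI6727 and DMSO (35.1%) and for 7 between BI6727 and vehicle (71.6%).

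Per kilobase of exon, the vehicle levels were 164 ± 19.0 RPKM for Nqo1, 98.8 ± 2.54 for Gpx1, 51.6 ± 6.32 for Hmox1, 44.8 ± 3.50 for Cyba and 42.1 ± 1.69 for Cat (SD, n = 2). Lower levels were 26.5 ± 0.803 RPKM for Sod1, 21.5 ± 2.44 for Sod2 and 13.4 ± 0.585 for Sod3. Hmox1 and Cyba did not separate beyond their replicates, nor did Cyba and Cat. The order depends on the length used. Over the main transcript Sod1 read 164 ± 4.98 RPKM, beside Nqo1, Cyba 62.5 ± 4.88, above Hmox1 at 57.5 ± 7.06, and Sod2 36.6 ± 4.16.

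The 5 genes whose pattern over the 6 libraries lay nearest to Hmox1 were Gm32618, Eaf2, Gm42067, Vps37b and Ccnd1. The root mean square difference of their centred log2 CPM was 0.0948, 0.0951, 0.0955, 0.0959 and 0.120. Eaf2 read at most 1.16 CPM, so its nearness rests on few counts, and Vps37b and Ccnd1 share 42.5% and 23.4% of their exon bases with other genes. Ccnd1, which encodes the cell-cycle protein cyclin D1, read 222 and 299 CPM in vehicle, 391 and 388 with TGF-β1 and DMSO, and 480 and 535 with BI6727.

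With the 10 genes included, 7 lists of redox genes held 105 genes, of which 90 were tested. The other 95 genes gave 82 of those tested, and the counts of calls include Sod2 and Hmox1. With TGF-β1 and DMSO against vehicle, 3 were called higher and 6 lower, where 2.75% of all genes were called higher and 3.23% lower. With BI6727 against vehicle, 2 were called higher and 6 lower, where the shares of all genes were 2.51% and 3.71%. Between BI6727 and DMSO 0 were called by edgeR or DESeq2. There edgeR's unadjusted p was below 0.05 for 10 of the 90, where 7.13% of all genes had one. Without vehicle replicate 1 the calls numbered 2 with DMSO and 4 with BI6727 against vehicle. The medians over the 90 genes were 0.10, 0.097 and -0.00081 on the log2 scale for these comparisons.

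Among glutathione genes, 17 were tested. With DMSO 1 was called higher and 3 lower against vehicle, and with BI6727 0 were called higher and 4 lower by edgeR, all of those lower being glutathione transferases. DESeq2 called 1 higher and 4 lower with BI6727. Of all genes, edgeR called 2.75% higher and 3.23% lower with DMSO against vehicle, and 2.51% and 3.71% with BI6727. Its unadjusted p was below 0.05 for 12 and 14 of the 17, where 35.2% and 35.4% of all genes had one. Gstm1, a transferase that conjugates glutathione to electrophiles, read 40.3 and 37.7 CPM in vehicle, 11.1 and 9.88 with TGF-β1 and DMSO, and 8.26 and 9.53 with BI6727. Vehicle lay above every other library, and the log2 fold change was -1.90 with DMSO (edgeR adjusted p = 9.29e-05) and -2.13 with BI6727 (edgeR adjusted p = 5.44e-05) against vehicle. Gstt1 read 6.67 and 5.09 CPM in vehicle, 1.62 and 1.65 with DMSO, and 0.881 and 1.23 with BI6727. Gstm2 read 26.7 and 25.3 CPM in vehicle, 13.2 and 12.7 with DMSO, and 9.42 and 9.53 with BI6727. Both were called lower in both comparisons with vehicle. The log2 fold change of Gstt1 was -1.84 with DMSO (edgeR adjusted p = 0.00356) and -2.45 with BI6727 (edgeR adjusted p = 0.00102). In each comparison its call was lost in 2 of 13 alternative fits, those with a replicate left out included. Gstt1 had 16 to 35 counts per library with TGF-β1. With DMSO, Gstm2 lay at -1.01 (edgeR adjusted p = 0.0017), close to the minimum fold. Its call was lost in 6 of 14 alternative fits, those with a replicate left out included. Among the 6 were DESeq2 (-0.99) and the fits without either vehicle replicate. Gstm1 and Gstm2 belong to a gene cluster of close relatives, and 18.9% and 5.66% of their 50-base windows occur in other transcripts. Mgst2, a membrane-bound glutathione transferase, was called lower with BI6727 against vehicle, at -1.26 (edgeR adjusted p = 0.00969), a call lost with the study's filter (adjusted p = 0.0138), with the replicate block (adjusted p = 0.0147) and without either replicate of either group. Chac1, which degrades glutathione, was called higher with DMSO, at 1.44 (edgeR adjusted p = 0.00819). This call was lost in 6 of 14 alternative fits, those with a replicate left out included. One of the 6 was a fit of those 2 groups alone (adjusted p = 0.0221). With BI6727 against vehicle Chac1 read 1.14 (edgeR adjusted p = 0.0212). Gsto1, a transferase chosen after its values were seen, went the other way. It read 440 and 455 CPM in vehicle, 691 and 830 with DMSO, and 686 and 714 with BI6727. Its log2 fold changes against vehicle were 0.77 (edgeR adjusted p = 0.00296) and 0.65 (edgeR adjusted p = 0.00633), under the minimum fold. At the less strict threshold 3 of the 17 were higher and 7 lower with DMSO, and 4 and 8 with BI6727. The list's median was -0.21 with DMSO and -0.48 with BI6727 against vehicle.

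Of the 15 superoxide and peroxide enzymes tested, Sod2 was the only one called, in the comparison of DMSO with vehicle, and their median there was 0.22. Between BI6727 and vehicle 0 of the 15 were called by edgeR or DESeq2. The unadjusted p was below 0.05 for 9 of the 15, where 35.4% of all genes had one. Of the 15 thioredoxin and glutaredoxin genes tested, 0 were called in any comparison by either tool. The unadjusted p was below 0.05 for 5 with DMSO and 8 with BI6727 against vehicle, where 35.2% and 35.4% of all genes had one. The medians of these 15 genes there were 0.068 and 0.12.

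Of the 11 regulators of NRF2, all were tested. The small MAF genes Maff and Mafk, whose products pair with NRF2 or BACH1 on DNA, were called higher with TGF-β1 and DMSO. Across all genes, 2.75% were called higher in that comparison. Maff read 22.1 and 29.8 CPM in vehicle, 71.2 and 92.5 with DMSO, and 73.0 and 74.2 with BI6727, for log2 fold changes of 1.65 (edgeR adjusted p = 0.000418) and 1.50 (adjusted p = 0.000653) against vehicle. Mafk read 25.0 and 27.2 CPM in vehicle, 48.8 and 57.3 with DMSO, and 47.1 and 51.2 with BI6727, at 1.02 with DMSO (edgeR adjusted p = 0.00115). That value lay close to the minimum fold, and it read 0.91 to 1.14 with a replicate left out. The call on Mafk was lost in 3 of 14 alternative fits, those with a replicate left out included. Each library with TGF-β1 lay above both vehicle libraries for both genes. Nfe2l2 itself, named after its values were seen, read 209.7 and 210.8 CPM in vehicle, 154 and 138 with DMSO, and 139 and 139 with BI6727. It was lower against vehicle by the less strict threshold, at -0.52 (edgeR adjusted p = 0.00872) and -0.60 (edgeR adjusted p = 0.00435). Sqstm1, also named after its values were seen, was higher, at 0.59 (edgeR adjusted p = 0.00483) and 0.76 (edgeR adjusted p = 0.00131). Its exons overlap those of another gene over 17.3% of their length. At that threshold 3 of the 11 regulators were higher and 1 lower with DMSO against vehicle, and 4 and 1 with BI6727.

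Of 33 NRF2 targets tested, 0 were called higher and 3 lower with DMSO against vehicle, and 1 higher and 3 lower with BI6727. Of all genes, 2.75% were called higher and 3.23% lower with DMSO, and 2.51% and 3.71% with BI6727. The targets called lower with DMSO were Gstm1, Idh1 and Aox1, and those called lower with BI6727 were Gstm1, Idh1 and Ephx1. The target called higher with BI6727 was Hmox1. Idh1, a cytosolic source of NADPH, read 272 and 234 CPM in vehicle, 104 and 108 with DMSO, and 118 and 111 with BI6727, at -1.26 (edgeR adjusted p = 0.000173) and -1.14 (adjusted p = 0.000251) on the log2 scale. The epoxide hydrolase gene Ephx1 read 211 and 205 CPM in vehicle, 106 and 103 with DMSO, and 94.2 and 88.1 with BI6727, for -1.19 with BI6727 (edgeR adjusted p = 0.000112). With DMSO Ephx1 was 1.993-fold lower (edgeR adjusted p = 0.000305), just under the minimum fold, and was called in 5 of 14 alternative fits. The aldehyde oxidase gene Aox1 read 9.40 and 7.45 CPM in vehicle, 3.58 and 2.49 with DMSO, and 5.23 and 5.15 with BI6727. Its log2 fold change against vehicle was -1.47 with DMSO (edgeR adjusted p = 0.00443) and -0.70 with BI6727 (edgeR adjusted p = 0.0712). Its call with DMSO was lost in 5 of 13 alternative fits, those with a replicate left out included. One of the 5 was a fit of vehicle and DMSO alone (adjusted p = 0.0146). The median over the targets was 0.10 with DMSO and 0.17 with BI6727 against vehicle, although more targets were called lower than higher. Unadjusted p was below 0.05 for 17 and 21 of the 33, where 35.2% and 35.4% of all genes had one.

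**Figure D3:**
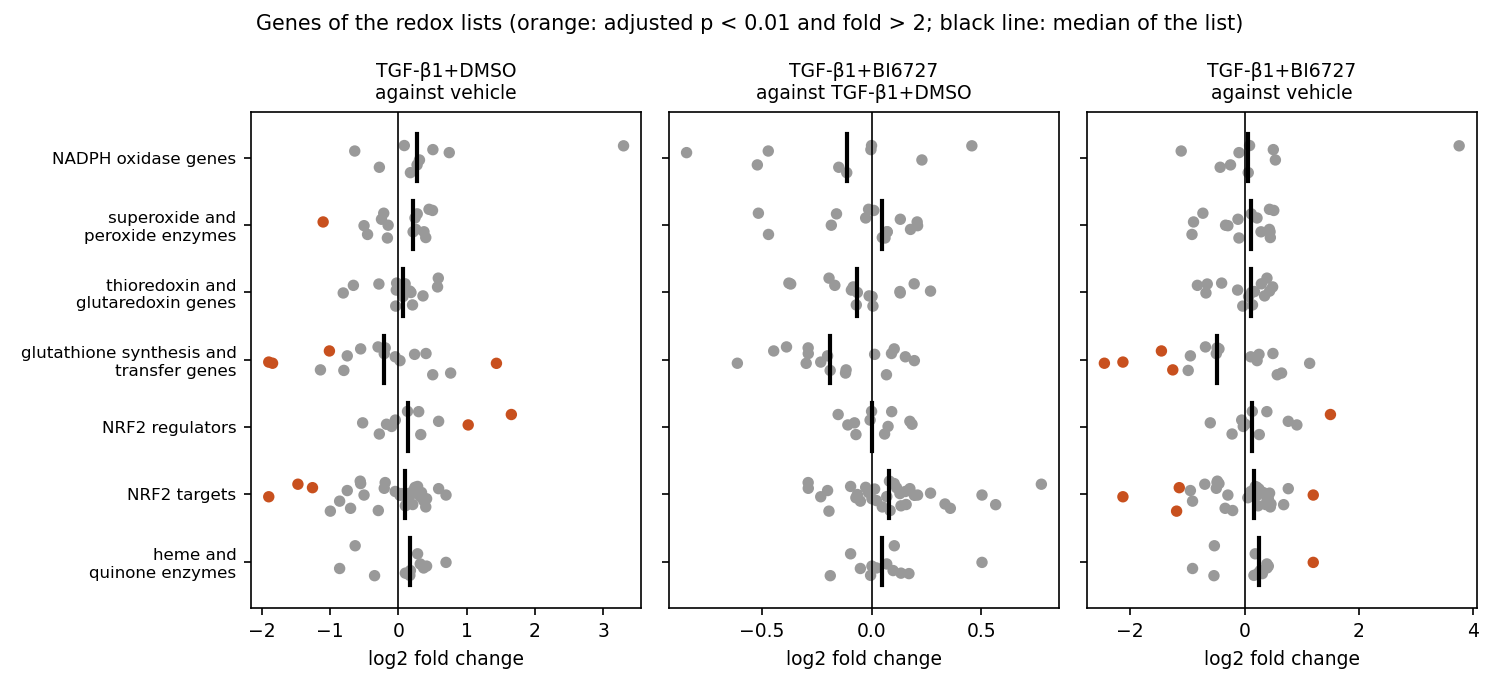
Log2 fold changes (horizontal axis) of the tested genes of each redox list in the comparisons, with called genes in orange and the list's median as a black line; the horizontal range differs between the panels. Called genes lie on both sides in the comparisons with vehicle and none is called between BI6727 and DMSO.

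Of 12 heme and quinone genes, all tested, 0 were called with DMSO by edgeR or DESeq2, and Hmox1 alone with BI6727 against vehicle. With DMSO 5 of the 12 had an unadjusted p below 0.05, where 35.2% of all genes had one. Fth1, the heavy chain of the iron store ferritin and chosen after its values were seen, read 2308 and 2237 CPM in vehicle, 1038 and 1468 with DMSO, and 1152 and 1265 with BI6727. It lay below vehicle in every library with TGF-β1, at -0.86 (edgeR adjusted p = 0.00778) and -0.91 (edgeR adjusted p = 0.00562). The ferritin light chain gene Ftl1 read 0.37 and 0.39 on the log2 scale (edgeR adjusted p = 0.203 and 0.18). Of its exon bases 34.6% lie in other genes, and 58.4% of its 50-base windows occur in other transcripts. Its count is uncertain there. Fech, which encodes the last enzyme of heme synthesis, was lower by the less strict threshold at -0.63 (edgeR adjusted p = 0.00805) and -0.53 (edgeR adjusted p = 0.0162). Ftl1 and Fech were also chosen after their values were seen.

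**Figure D4:**
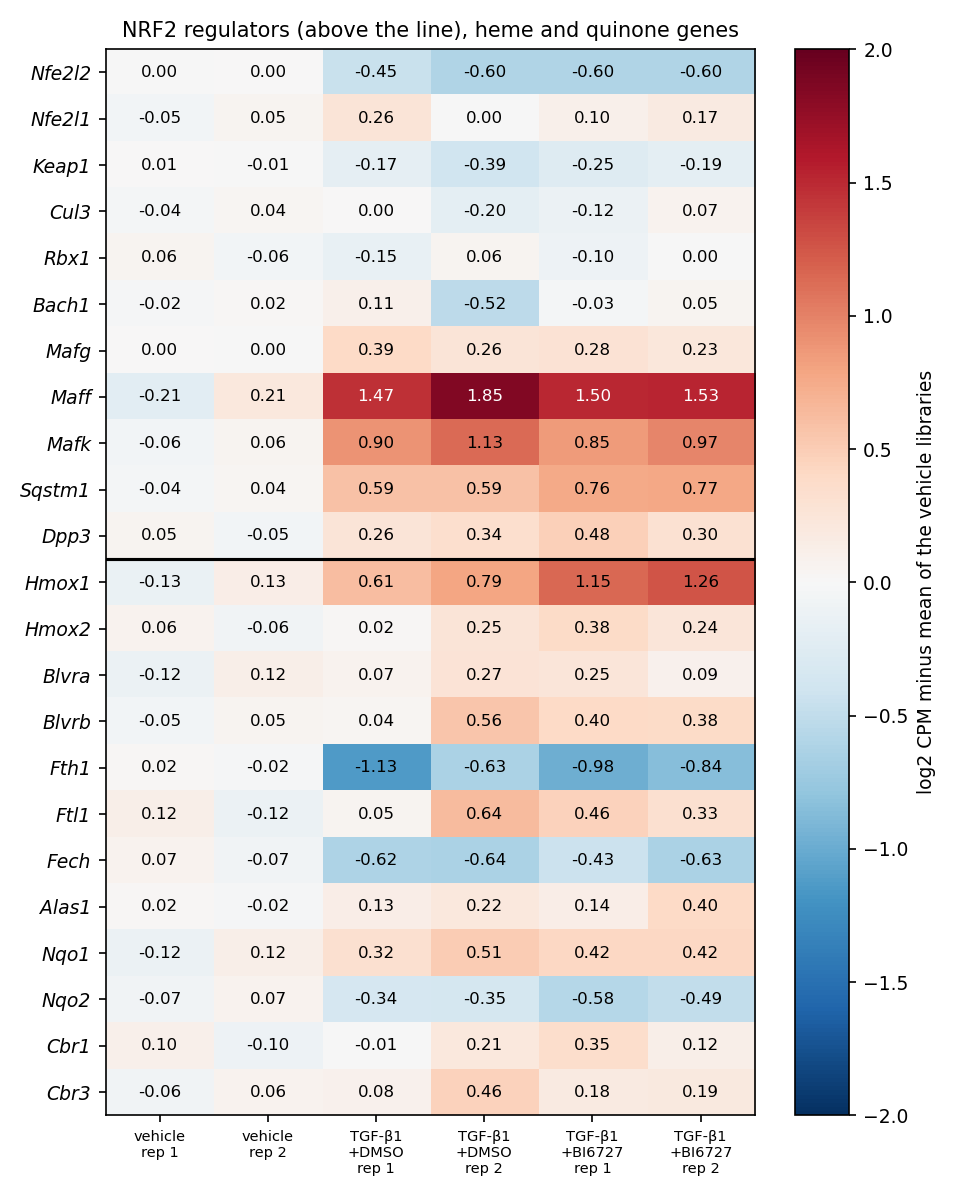
Colours give the log2 CPM of NRF2 regulators (above the line) and heme and quinone genes (below) minus the mean of the vehicle libraries, 1 column for each of the 6 libraries. Maff, Mafk and Hmox1 are higher in all 4 libraries with TGF-β1, and Nfe2l2 and Fth1 are lower in all 4.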

How the data were processed

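Gene counts from 6 NIH/3T3 libraries were analysed. The authors mapped single-end reads to mm10 with Subjunc 1.6.4 and assigned them to Gencode M20 genes by featureCounts. The deposited counts are raw, with no normalization by the authors. The strand setting is not given in the sources used here.

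From the deposited counts, groups were tested by the quasi-likelihood method of edgeR 4.0.16 under R 4.3.3 (filterByExpr, TMM scaling, one fit of 6 libraries with 3 residual degrees of freedom, Benjamini-Hochberg adjustment). Standard errors were the log2 fold change divided by the square root of F. Values of log2 CPM used a prior count of 1, and fold changes the default of edgeR's fit. DESeq2 1.42.0 was an alternative. Of the gene identifiers, 54723 matched a symbol. Nothing in the labels says that replicates were separate cultures, so p-values measure only the spread between these samples, which may be technical. Exact permutation of 2 against 2 libraries cannot go below 0.333 and was not used. Intervals on counts and floors cover counting error only. Same-numbered replicates correlated at -0.037, -0.0585 and -0.00787 in their deviations, so the numbers were not taken to pair samples. The test was checked on simulated counts.

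The genes and lists were chosen with earlier results of these data known. Named genes were the 10 members, called redox genes (up to 8 per direction and comparison), the 5 nearest to Hmox1 and to Nox4, and the response check. Some genes of these lists are not reported here. Alternatives were other thresholds, filters, scaling, tests and samples, the replicate block, and length offsets (a lowess of span 0.3) alone or, added after the data were seen, with the block.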

Additional observations from a re-analysis of the deposited data

How the results depend on the processing

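The number of the 10 genes called with TGF-β1 and DMSO against vehicle was 1, and it was 4 at an adjusted p below 0.05, 2 at 0.01 with no fold minimum, and 0 with length offsets alone or with the replicate block, where Sod2 lay at -0.90 in both. With a replicate left out it was 0 to 1. For BI6727 against vehicle it was 1, and 4 and 2 at those thresholds, and 0 to 1 with a replicate left out. Redox genes called were 9 with DMSO against vehicle, 30 and 21 at those thresholds, and 2 to 9 with a replicate left out (2 without vehicle replicate 1, 5 without vehicle replicate 2). With BI6727 against vehicle they were 8, then 40 and 18, and 4 to 10 (4 without vehicle replicate 1). Over all genes, 874 became 3052, 1421 and, with the study's filter, 485, with 310 to 1435 leaving out a replicate, and 908 became 3216, 1531 and 505, with 355 to 1204. Between BI6727 and DMSO 0 became 2 at an adjusted p below 0.05, 47 with no filter, 15 with DESeq2, 11 with length offsets and 14 with length offsets and the replicate block, and 0 to 98 leaving out a replicate (98 without DMSO replicate 1). Fewer samples enter each fit that leaves one out. The cause of the other changes was not tested.

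With the replicate block, 1 of the 10 genes was called in each comparison with vehicle and 0 between BI6727 and DMSO, as without it. The block gave -1.10 for Sod2 with DMSO and 1.20 for Hmox1 with BI6727 against vehicle, and Mgst2 with BI6727 was no longer called (-1.27, adjusted p = 0.0147). Cyba with BI6727 against vehicle had an adjusted p of 0.0673 with the block.

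Among the fold changes of named genes, signs turned for Gpx1, Nqo1 and Sod1. For BI6727 against DMSO, Gpx1 read -0.00094 with the study's filter, -0.0038 with DESeq2 size factors and -0.0037 with DESeq2, and -0.23 to 0.28 leaving out a replicate. Nqo1 read -0.0086 with the study's filter, -0.0019 with no filter, and -0.012 with DESeq2 size factors and with DESeq2, and -0.096 to 0.090 leaving out a replicate. Leaving out a replicate, Sod1 read -0.041 to 0.52 with DMSO against vehicle and -0.081 to 0.47 with BI6727 against DMSO.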
